A study of Mus musculus with 4 samples.

Results

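The tubulin genes of the mouse lung were followed by single-cell RNA sequencing (scRNA-seq) in animals with and without Tubb3, the gene of β-III tubulin, which the antibody Tuj1 recognises. Described here are Tubb3, 5 other β-tubulins (Tubb2a, Tubb2b, Tubb4b, Tubb5 and Tubb6) and 4 α-tubulins (Tuba1a, Tuba1b, Tuba1c and Tuba4a), which are 10 of the 32286 genes of the table and were taken by name. Lungs came from 2 WT mice and 2 Tubb3-/- littermates, 8 to 11 weeks old, and every mouse had received 0.8 U/kg bleomycin into the trachea 14 days earlier, so that no untreated lung enters any comparison. The Tubb3-/- mice were homozygous for a Tubb3-Cre knock-in, in which Cre is joined in frame to the start codon of Tubb3, and the allele is present in all cells of the animal, neurons included. From each mouse, whole lung cells depleted of red cells and a mesenchymal sample enriched for mural cells were tagged, and the 4 mice of a kind were run together, which gave 2 pooled gene expression libraries that were split by tag into 8 sets of cells, 1 for each mouse and pool. 2 questions were put to the data, whether other tubulin mRNAs differ where Tubb3 is missing, and whether transcripts are still counted at the Tubb3 locus of Tubb3-/- mice.

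Microtubules are polymers of dimers of α- and β-tubulin, and mammals make several isotypes of each from separate genes, which differ mainly in the acidic tail at the C-terminus. Tubb3 is best known as an isotype of neurons, Tubb5 is the main β-tubulin of many dividing cells, and Tubb4b is abundant in cells with motile cilia. Cells also adjust tubulin mRNA to the amount of free tubulin. When free dimers are in excess, the factor TTC5 binds the first residues of a tubulin chain as it leaves the ribosome and, through SCAPER and the CCR4-NOT complex, the mRNA is degraded.

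Because that signal is read from the start of the coding sequence, and because Cre was placed at the same start in the Tubb3-/- allele, the first 30 coding bases of the members other than Tubb6 are shown 5′ to 3′, taken from the GENCODE vM21 transcripts of mm10. Capitals mark the first 12 bases, the 4 codons nearest the start, and the rest is in lower case.
Tubb3: ATGAGGGAGATCgtgcacatccaggccggc
Tubb4b: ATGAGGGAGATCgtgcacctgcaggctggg
Tubb5: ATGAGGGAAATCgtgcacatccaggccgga
Tubb2a: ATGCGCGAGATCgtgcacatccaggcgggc
Tubb2b: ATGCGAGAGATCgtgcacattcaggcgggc
Tuba1a: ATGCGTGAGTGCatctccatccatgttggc
Tuba1b: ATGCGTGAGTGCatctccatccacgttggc
Tuba1c: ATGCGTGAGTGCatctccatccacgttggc
Tuba4a: ATGCGCGAGTGCatttcagtccatgtgggg
In the 12 capital bases Tubb4b was identical to Tubb3, Tubb5 and Tubb6 differed from it at 1 base, Tubb2a and Tubb2b at 2 bases, and all 4 α-tubulins at 4 bases. These are differences of bases and not of the chain that TTC5 binds. The capital bases of all β-tubulins printed encode the same residues, Met-Arg-Glu-Ile, and those of the α-tubulins encode Met-Arg-Glu-Cys. Tuba1b and Tuba1c were identical over the whole stretch of 30 bases.

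Tubb3 (ENSMUSG00000062380) lies on the plus strand at chr8:123411424-123422015 of mm10, with 4 exons and its start codon at 123411606 to 123411608. From there to the end of the transcript are 1686 bases in the unaltered gene, and how much of them the targeted allele still transcribes was not tested. Tubb2a (chr13:34074274-34078007) and Tubb2b (chr13:34126748-34130466) are neighbours on the minus strand. Tubb4b lies at chr2:25222160-25224702, Tubb5 at chr17:35833921-35838306, Tubb6 at chr18:67390717-67402749 and Tuba4a at chr1:75214228-75219865. Tuba1b (chr15:98931425-98934565), Tuba1a (chr15:98949837-98953703) and Tuba1c (chr15:99029891-99038110) form a cluster. The 3′ kit reads transcript ends, so the last 500 bases of each gene's transcripts were cut into stretches of 90 bases and searched for in all other transcripts. All such stretches of Tubb3, Tubb5, Tubb6 and Tuba4a were found in no other gene, as were 97.7% of those of Tubb2b and 93.7% of Tubb4b. The share was 74.2% for Tubb2a, which has copies in Tubb2b and a pseudogene, and 47.9%, 53.3% and 54.5% for Tuba1a, Tuba1b and Tuba1c, whose other stretches recur among these 3 genes and in pseudogenes, so the split of counts among these close copies is uncertain. Tubb3 is overlapped on its own strand by Gm20388, which is not in the table, while Tuba4a is overlapped by Stk16 and Tubb4b by Fam166a on the opposite strand.

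The 8 sets held 3202 to 5051 cells and 41462258 to 95036340 gene UMIs (unique molecular identifiers, each a counted transcript), with a median of 9186 to 13321 UMIs per cell in WT and 11484.5 to 16299 in Tubb3-/- sets. Of 32121 cells, 30860 had 200 to 7500 genes and at most 15% mitochondrial UMIs. A cell was placed in a lineage by at least 1 UMI of Ptprc (immune), Cdh5 (endothelial), Epcam (epithelial), Higd1b or Myh11 (mural, that is pericytes and smooth muscle) or Pdgfra (fibroblast), and 12261 cells (39.7%) that met the rule of several lineages were dropped, with 1093 (3.54%) that met none. This left 5589 mural, 4547 fibroblast, 4546 immune, 2407 endothelial and 417 epithelial cells. The summed lineage markers that were not used in the rule were highest in their own lineage for all 5, by 50.4-fold over the next lineage for immune, 53.3-fold for endothelial, 34.8-fold for epithelial and 20.0-fold for mural markers, but only 2.46-fold for fibroblast markers, where mural cells came next. Pdgfrb, a member of that list, was higher in mural cells (141 to 230 CPM) than in fibroblasts (47.2 to 86.8 CPM) in all 4 mice. Clustering, run as a check, put 82.6% of the mural lineage in mural clusters, 604 of its cells in fibroblast clusters and 250 in mesothelial clusters, against 92.3% to 98.4% of the other lineages in their own clusters. A Myh11 UMI was present in 12.5% of cells with 2 or more Ptprc UMIs in the whole-cell pool and in 59.8% of them in the mural cell-enriched pool, so 1 Myh11 UMI is also found in cells of another lineage, and whether by free RNA or by doublets was not tested. UMIs were summed per mouse and lineage, and levels are given as counts-per-million of that sum (CPM), which came to 10490873 to 21348986 UMIs for mural, 16511081 to 26273597 for fibroblast, 10585700 to 14422584 for immune, 2443110 to 7331256 for endothelial and 1761321 to 2066291 for epithelial cells. Sums of different lineages come from the same 4 mice, and with 2 mice a genotype the p-values measure the spread between these mice.

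Tubb3 followed the genotype labels. Over all cells it had 415 UMIs in WT replicate 1 and 219 in WT replicate 2, against 80 and 68 in the Tubb3-/- mice, that is 3.99 and 2.42 CPM against 0.517 and 0.529. Both WT mice stood above both Tubb3-/- mice. Cre, whose sequence was added to the reference, had 3 and 1 UMIs in all cells of the Tubb3-/- mice and 0 in the WT mice, which allows at most 0.0288 and 0.0331 CPM there by a floor of 3 counts per mouse. The Cre level over both Tubb3-/- mice, 0.0141 CPM, lay below these floors, so Cre does not separate the genotypes.

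Mural cells had the highest Tubb3 level of the WT mice. They had 180 and 89 Tubb3 UMIs, or 10.4 and 8.48 CPM, with exact 95% Poisson intervals of 8.93 to 12.02 and 6.81 to 10.4 that cover counting error only. Fibroblasts had 73 and 22 UMIs, or 4.10 and 1.33 CPM, and immune cells 10 and 7 UMIs, or 0.824 and 0.661 CPM. No Tubb3 UMI was counted in the WT endothelial and epithelial cells, where the floor of 3 counts over both mice stands at 0.444 and 0.804 CPM. The order mural, fibroblast, immune held in both WT mice. The interval of mural cells lay above that of fibroblasts in both, whereas fibroblast and immune cells overlapped in WT replicate 2 (0.835 to 2.02 and 0.266 to 1.36 CPM), and immune cells could not be told from endothelial and epithelial cells, whose intervals from 0 UMIs reach 0.857 to 2.09 CPM. Summed over both mice, the mural level was 3.49 times that of fibroblasts, 12.9 times that of immune cells, at least 21.8-fold higher than in endothelial cells and at least 12.02-fold higher than in epithelial cells. The ratio to fibroblasts differed between the mice, at 10.4 against 4.10 CPM in WT replicate 1 and 8.48 against 1.33 CPM in WT replicate 2. The mural level exceeded that of fibroblasts by 1.80 on the log2 scale (SE, the standard error, 0.38, adjusted p = 0.0110 in the quasi-likelihood test of edgeR) and that of immune cells by 3.56 (SE 0.47, adjusted p = 0.000347 in the same test).

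**Figure D1:**
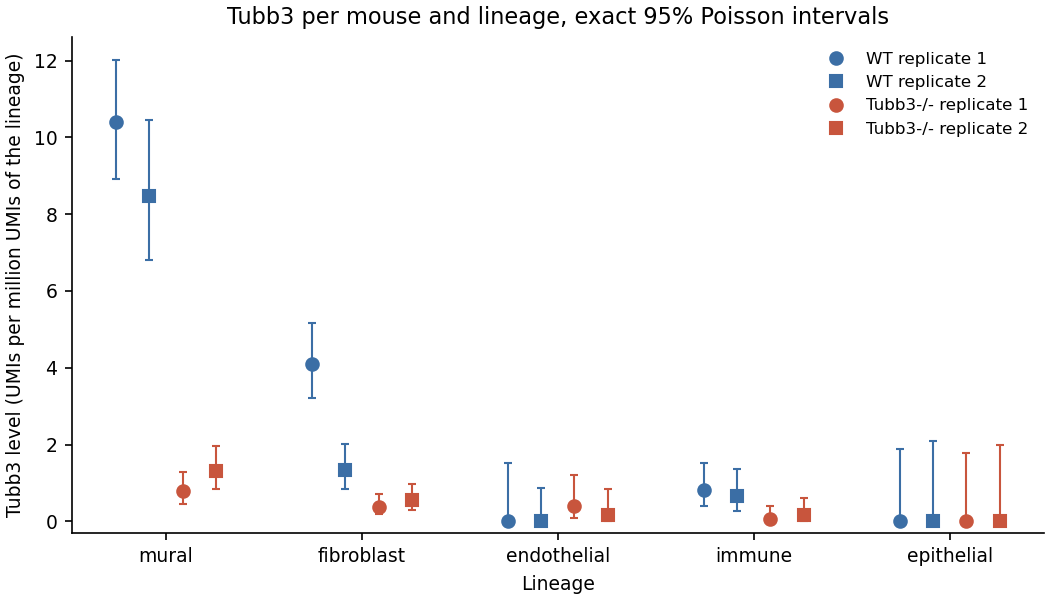
Tubb3 level in CPM of the lineage (vertical axis) for 5 lineages, with 1 point per mouse (blue WT, red Tubb3-/-; circle replicate 1, square replicate 2) and bars for the exact 95% Poisson interval of the count. Mural cells of the WT mice stand highest at 10.4 and 8.48 CPM, and no Tubb3-/- point exceeds 1.32 CPM.

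Mural cells made up 14.3% of the WT UMIs and 42.4% of the WT Tubb3 UMIs, and the cells dropped for matching several lineages held another 38.0%. These shares depend on the make-up of the pools, 1 of which was enriched for mural cells. When lineages were taken from clusters, which keep those cells, the WT mural level was 11.7 and 9.18 CPM and the fibroblast level 3.89 and 2.36 CPM. Mural clusters then held 47.95% of the WT Tubb3 UMIs and 14.6% of all WT UMIs, and fibroblast clusters 42.43% and 43.3%. Endothelial clusters then had 5 and 7 Tubb3 UMIs in the WT mice (1.02 and 0.825 CPM) and epithelial clusters 1 and 3, so the 0 above depends on which cells were kept. The mural level stayed above each of the other 4 lineages, with differences of 1.70 to 4.89 on the log2 scale and adjusted p from 3.91e-06 to 0.000752 in edgeR.

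At this depth a share of cells with a UMI does not limit how many cells express the gene. A Tubb3 UMI was present in 98 of 1562 mural cells (6.27%, exact Clopper-Pearson interval 5.12% to 7.59%) of WT replicate 1 and in 55 of 1005 (5.47%, 4.15% to 7.06%) of WT replicate 2. Of these cells 65 and 40 held 1 UMI, and the highest held 13 and 8. With cells thinned to 2000 UMIs, the share averaged 1.66% ± 0.223 in WT and 0.208% ± 0.0590 in Tubb3-/- animals (SD, n = 2 each), beside 5.87% ± 0.567 and 1.11% ± 0.327 without thinning, and an exact permutation test of both directions, over the 4 animals, gave 0.3333, the smallest p this design allows. In endothelial cells, which held no WT Tubb3 UMI, the share was 0 at a median of 5681 and 6238.5 UMIs per cell, against 10354 and 9600 in the WT mural cells.

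Mural cells were also split by any UMI of Higd1b, a pericyte marker. The split does not separate pericytes from smooth muscle, since most cells with Higd1b also held Myh11 and a pericyte may show no Higd1b UMI at this depth. Only 46 of the 5589 mural cells held Higd1b without Myh11, with 3 Tubb3 UMIs in WT and 0 in Tubb3-/- mice, too few for a test. Mural cells with any Higd1b UMI had 29.3 and 10.5 CPM of Tubb3 in WT mice (32 and 14 UMIs) and 0.981 and 5.65 CPM in Tubb3-/- mice (2 and 10 UMIs). Those with Myh11 alone had 9.12 and 8.19 CPM in WT and 0.777 and 0.854 CPM in Tubb3-/- mice. Both groups of cells were higher in both WT mice. The genotype difference was -3.41 on the log2 scale (SE 0.26) in cells with Myh11 alone and passed the threshold (adjusted p = 0.0181 in edgeR), and -2.59 (SE 0.74, adjusted p = 0.784) in cells with Higd1b, where it did not.

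The other tubulins had each their own pattern over the WT lineages (the plot of levels in WT mice). Each lineage was tested against the mean of the other 4 with edgeR over 17110 genes, and at an adjusted p under 0.05 this called 6 members in mural, 5 in fibroblast, 7 in endothelial, 7 in immune and 6 in epithelial cells. The same test called 44.0%, 44.9%, 39.7%, 62.7% and 42.7% of all genes, so most members and a large share of all genes differed between lineages. Levels are UMIs at transcript ends and were not divided by length, and each gene is compared between lineages rather than with other genes.

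Tubb6, a β-tubulin found in many non-neuronal tissues, came closest to the Tubb3 pattern. It had 82.8 and 64.3 CPM in mural, 91.9 and 80.0 in fibroblast and 57.6 and 58.0 in immune cells of the WT mice, against 22.5 and 17.2 in endothelial and 14.2 and 6.24 in epithelial cells. Mural, fibroblast and immune cells lay above endothelial and epithelial cells in both mice, and each contrast passed, at 1.21 (mural), 1.62 (fibroblast), 0.96 (immune), -1.35 (endothelial) and -2.45 (epithelial) on the log2 scale (adjusted p at most 0.000189 in edgeR). Tuba1c was 1.15 higher in mural and 1.20 higher in immune cells than in the others, at 112 and 77.4 CPM and at 82.8 and 91.3 CPM, and 2.11 lower in endothelial cells, at 19.7 and 14.9 CPM.

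Endothelial cells stood apart by Tubb2a, Tubb2b and Tubb5. Tubb2a had 199 and 206 CPM there, against 119 and 107 in fibroblast and 79.2 and 80.2 in mural cells, and 41.2 and 40.8 in immune cells. Tubb2b, a close copy of Tubb2a, had 30.7 and 23.7 CPM in endothelial cells and at most 9.82 CPM in the other lineages of the WT mice. Tubb5 had 267 and 307 CPM, above each of the other lineages in both mice, against 204 and 185 CPM in immune, 173 and 187 in mural and 167 and 163 in fibroblast cells, and was lowest in epithelial cells at 90.4 and 96.5 CPM. The endothelial contrast was 1.38 for Tubb2a, 1.88 for Tubb2b and 0.73 for Tubb5 on the log2 scale (adjusted p 8.16e-05, 0.000377 and 0.000497 in edgeR). Tubb2a was also called higher in fibroblasts (0.65) and lower in immune (-1.14) and epithelial cells (-0.78), and Tubb5 higher in immune (0.38) and lower in epithelial cells (-1.21). The immune call of Tubb5 was lost, and its direction turned, without cells that hold an Mki67 or Top2a UMI (-0.22, adjusted p = 0.100 in edgeR) and in the mural cell-enriched pool (-0.10, adjusted p = 0.844). In that pool the immune value of Tubb2a was 0.003 and its fibroblast value 0.17 (adjusted p = 0.532), and its epithelial call was lost (-0.61, adjusted p = 0.0704). The immune lineage of that pool held only 14 and 39 cells in the WT mice.

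Epithelial cells carried the highest Tubb4b, at 707 and 530 CPM, where the next lineage, endothelial, had 151 and 202 CPM. Tubb4b was 2.13 higher on the log2 scale in epithelial cells and 1.39 lower in immune cells (70.5 and 80.5 CPM) than in the other lineages (adjusted p 8.49e-07 and 2.95e-05 in edgeR). Tuba4a was high in epithelial (60.9 and 55.6 CPM) and immune cells (43.2 and 49.9 CPM) and at most 10.3 CPM in the other lineages of both WT mice. The difference was 2.24 and 2.11 on the log2 scale, and Tuba4a was called lower in the other 3 lineages. Its mural call was lost in the whole-cell pool, though the value was no smaller (-1.09 in place of -0.81, adjusted p = 0.101 in edgeR). Its endothelial call was lost in the mural cell-enriched pool (-0.44 in place of -1.44, adjusted p = 0.385).

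Tuba1a and Tuba1b were the broad α-tubulins. Tuba1a had 483 and 511 CPM in fibroblast, 406 and 447 in endothelial, 343 and 404 in mural, 364 and 278 in epithelial and 91.6 and 78.4 in immune cells, and it was called higher in mural (0.44), fibroblast (1.08) and endothelial cells (0.49 on the log2 scale) and lower in immune cells (-2.06, adjusted p = 1.01e-06 in edgeR). Tuba1b ranged from 101 to 177 CPM over all 5 lineages of both mice, and was called higher in mural (0.33) and lower in epithelial cells (-0.57). The mural call of Tuba1b was lost with lineages from clusters (0.20, adjusted p = 0.114 in edgeR) and with no limits on cells (0.30, adjusted p = 0.0572). It was also lost in each pool alone (0.04 in the whole-cell and 0.30 in the mural cell-enriched pool). Its epithelial call was lost in the whole-cell pool (-0.33, adjusted p = 0.0906). The mural call of Tuba1a was lost in the whole-cell pool (0.28, adjusted p = 0.171) and its endothelial call in the mural cell-enriched pool (0.41, adjusted p = 0.0641). With lineages from clusters the WT mural level of Tubb2b was 1.80 and 2.84 CPM in place of 5.71 and 9.82 CPM. The mural lineage also held 334 and 606 CPM of 3 mesothelial markers (Msln, Upk3b and Wt1) in WT and 271 and 319 CPM in Tubb3-/- mice, none of them at 0, whose part in its Tubb2b level was not tested.

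**Figure D2:**
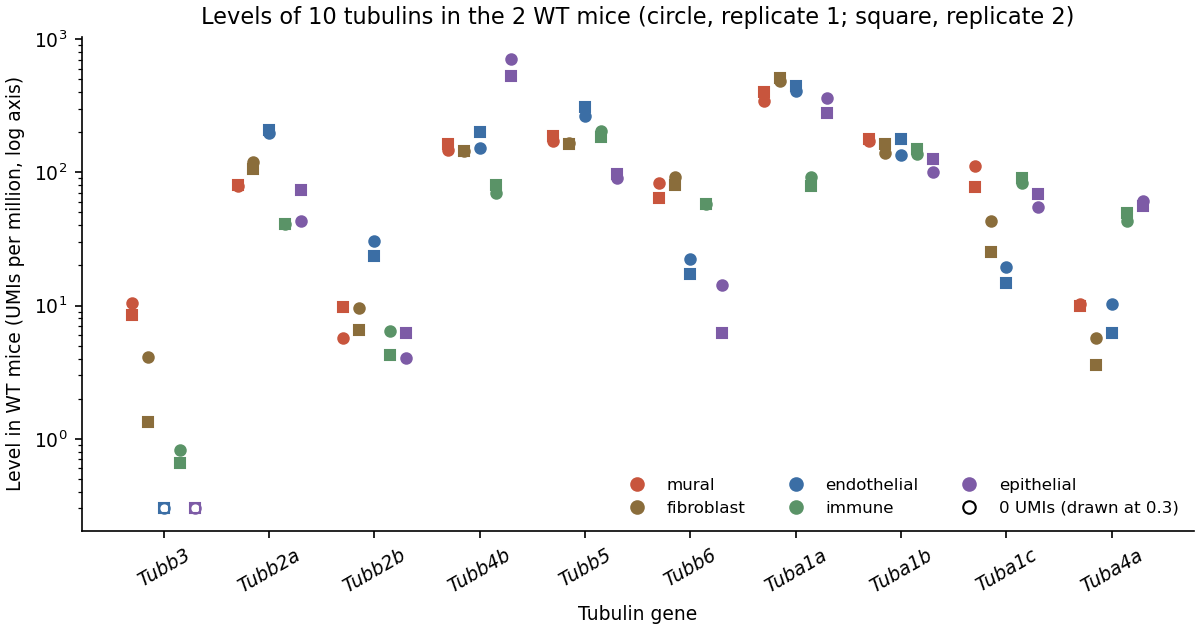
Level of each tubulin in CPM (vertical log axis) in 5 lineages (colours) of WT replicate 1 (circles) and WT replicate 2 (squares), with lineages of 0 UMIs drawn as open marks at 0.3. Tubb3 is highest in mural cells, Tubb2b in endothelial cells and Tubb4b in epithelial cells, where it reached 707 CPM.

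Genes were ranked by the Pearson correlation of log2(CPM + 0.1) with Tubb3 over the 10 WT sums of 5 lineages and 2 mice, as a description, since sums of a mouse share its cells' pools. Among 15461 genes that averaged 1 CPM or more, the closest were Rab39b (r = 0.967), Nr4a1 (0.964), Hectd2 (0.953), Gm13470 (0.946) and Tnnt3 (0.945). Rab39b, a small GTPase of vesicle traffic, had 4.58 CPM in mural and 0.523 CPM in fibroblast cells over the WT mice. Nr4a1, an immediate early nuclear receptor, had 902 and 781 CPM, and Hectd2 14.5 and 14.9 CPM. Tubb3 was at 0 in the WT endothelial and epithelial sums, which weigh heavily in r on this scale. The ranking thus rests largely on low levels in these lineages, and with lineages from clusters Tubb3 was not at 0 there. Of the other tubulins, Tubb6 ranked 85th with r = 0.866, and those of Tuba1b and Tuba1c were 0.558 and 0.507.

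In Tubb3-/- mice, Tubb3 UMIs were fewer but not gone. Mural cells had 17 and 24 UMIs, or 0.796 and 1.32 CPM, with Poisson intervals of 0.464 to 1.28 and 0.847 to 1.97 CPM, fibroblasts 10 and 13 UMIs (0.381 and 0.562 CPM), and immune cells 1 and 2 UMIs (0.0693 and 0.172 CPM). In these 3 lineages both Tubb3-/- mice lay below both WT mice. Endothelial cells had 3 and 1 UMIs in Tubb3-/- against 0 in WT mice, and epithelial cells had 0 in all 4 mice. As a share of the WT level, 10.7% was left in mural, 16.8% in fibroblast and 15.4% in immune cells, and 16.0% over all cells. With 1 mouse left out the share ran from 8.23% to 13.7% in mural and from 9.27% to 22.9% in immune cells, the lowest immune value without Tubb3-/- replicate 2. In fibroblasts it was 35.0% without WT replicate 1 and 11.4% without WT replicate 2.

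The mural level was 9.44 ± 1.35 CPM in WT and 1.06 ± 0.372 CPM in Tubb3-/- animals (SD, n = 2 each), a log2 fold change of -3.17 (SE 0.30). edgeR's quasi-likelihood test over 15199 genes gave a p of 2.9e-05 and an adjusted p of 0.0543, which missed the threshold of 0.05, and over 15 alternatives the adjusted p ran from 5.72e-11 to 0.534 and passed in 6 of them, with the same direction in all 15. A block on the replicate number, which goes with sex, was 1 of these 6 (adjusted p = 0.00363). Without WT replicate 1 it was 7.71e-06 and without WT replicate 2 9.04e-07, whereas it was 0.534 without Tubb3-/- replicate 1 and 0.137 without Tubb3-/- replicate 2. With lineages from clusters the fold change was -2.97 and the adjusted p 0.0372. In fibroblasts the log2 fold change was -2.54 (SE 0.65, adjusted p = 0.164 in edgeR over 15280 genes), at 4.10 and 1.33 CPM in WT mice, and the other lineages had too few UMIs for the test.

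Tubb3 UMIs of the Tubb3-/- mice came from 14 and 19 mural cells (0.874%, interval 0.479% to 1.46%, and 1.34%, 0.807% to 2.08%), and at most 3 and 5 UMIs lay in 1 cell. The 4 mice of a pool shared a droplet run, and how far transcripts crossed between tags was read from sex-linked genes. Replicate 1 of both genotypes carried UMIs of 4 Y-linked genes and replicate 2 carried Xist, so the sexes were balanced over genotype. In mural cells the Y-linked level of the replicates 2 was 4.56% of that of the replicates 1, and the Xist level of the replicates 1 was 2.45% of that of the replicates 2. Both values are below the 10.7% of Tubb3 left there. In fibroblasts they were 2.63% and 1.503% beside 16.8% for Tubb3, and in immune cells 2.82% and 2.51% beside 15.4%. Xist stood at 592 to 733 CPM in the replicates 2 over the 5 lineages, whereas Tubb3 was far higher in WT mural cells than elsewhere. The shares are thus not like measures, least of all in lineages of low Tubb3.

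By pool, 244 WT and 40 Tubb3-/- UMIs of the mural cells in the mural cell-enriched libraries gave 11.5%, beside 4.66% for the Y-linked genes and 2.54% for Xist. In the whole-cell libraries 21 and 4 UMIs of the WT mice (15.8 and 4.21 CPM) and 0 and 1 UMIs of the Tubb3-/- mice gave 2.88%, beside 3.12% and 1.35%. The whole-cell value rests on that single UMI. Fibroblasts gave 15.2% (68 and 14 UMIs) and 20.0% (27 and 9 UMIs) in the mural cell-enriched and the whole-cell pool. In the whole-cell pool the fibroblast levels were 5.24 and 0.810 CPM in WT and 0.231 and 1.02 CPM in Tubb3-/- mice, so that the genotypes overlapped, and the share left was 71.5% without WT replicate 1, 35.2% without Tubb3-/- replicate 1 and 7.97% without Tubb3-/- replicate 2. In the mural cell-enriched pool it was 26.6% without WT replicate 1. The share left thus exceeded both sex-linked shares in 4 of the 5 pairs of pool and lineage with WT UMIs, and not in the mural cells of the whole-cell pool.

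The 33 mural cells of Tubb3-/- mice with a Tubb3 UMI had a median of 14800 UMIs and 86.4% of their tag counts from their own tag, against 11860 UMIs and 86.1% in the 2989 without. UMIs of the other sex were present in 21.2% of the former and 7.69% of the latter, and in 0 of the 4 mural cells with 2 or more Tubb3 UMIs. Over all cells of these mice the shares were 20.8% of 120 cells with a Tubb3 UMI, 11.1% of the 18 with 2 or more and 9.82% of 16762 cells without, and in WT mice they were 11.5% of 373 cells and 9.06% of 13605 cells. Whether the UMIs left come from the targeted allele or from cells and transcripts of the WT mice of the pool was not tested.

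**Figure D3:**
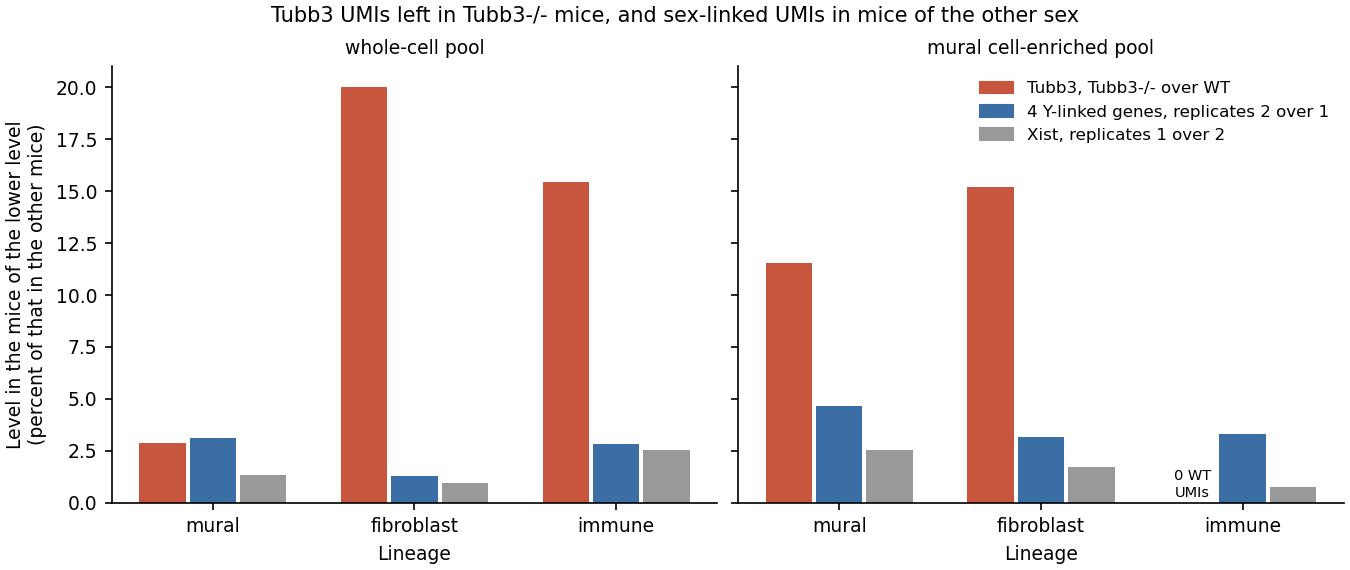
Percent of the level in the other mice that was found in the mice of the lower level (vertical axis), for Tubb3 (red, Tubb3-/- over WT), 4 Y-linked genes (blue, replicates 2 over 1) and Xist (grey, replicates 1 over 2), in 3 lineages of each pool. Tubb3 stands at 11.5% and 15.2% in mural cells and fibroblasts of the mural cell-enriched pool, and at 2.88%, from 1 UMI, in mural cells of the whole-cell pool.

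Genes beside the Tubb3 locus were counted as a check of the region. Of the 5 genes on each side that the table holds, 9 of 10 were tested in mural cells. None was called by edgeR or by DESeq2 and 0 had an unadjusted p under 0.05, beside 0.0263%, 1.55% and 11.9% of all genes. Their median log2 fold change was -0.03. Def8, which begins 1511 bases beyond the end of Tubb3, had 9.52 and 10.2 CPM in WT and 9.70 and 10.3 CPM in Tubb3-/- mural cells. Mc1r, the melanocortin receptor gene that ends 679 bases before Tubb3 starts, had 0.635 and 0.572 against 0.328 and 0.275 CPM, a log2 fold change of -0.99 (SE 0.51, adjusted p = 0.522 in edgeR). Tcf25, further on the same side, had 145 and 155 against 138 and 141 CPM.

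Since Tubb3 marks neurons, neuron markers (Elavl3, Elavl4, Snap25, Prph, Nefl, Stmn2 and Uchl1) were read in the same sums. In mural cells Uchl1 had the highest level of them, with 20.2 and 13.4 CPM in WT and 20.3 and 19.1 CPM in Tubb3-/- mice, while Nefl was at 0. Snap25 and Elavl4, which are more restricted to neurons, were each at 0.115 and 0.0953 CPM in the WT mice. Stmn2 had 1.15 and 1.91 CPM in WT against 0.749 and 1.32 CPM in Tubb3-/- mural cells, and Prph 0.693 and 1.33 against 0.984 and 1.27 CPM, with overlap between genotypes for both. Elavl3 had 2.08 and 0.763 CPM in WT against 0.515 and 0.386 CPM in Tubb3-/- mural cells, and 4.95 and 2.30 against 1.37 and 0.519 CPM in fibroblasts, so both Tubb3-/- mice were lower in both lineages. In endothelial cells Stmn2 reached 435 and 400 CPM in WT mice, with Elavl4, Snap25 and Nefl at 0 and no WT Tubb3 UMI. Of the Schwann cell markers, Sox10 had 0.577 and 0.572 CPM in WT against 0.141 and 0 CPM in Tubb3-/- mural cells, and S100b, which other cells also express, 13.9 and 7.63 against 30.3 and 24.7 CPM. The part of nerve cells in the Tubb3 level was not tested.

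The remaining tubulins were then compared between genotypes in each lineage, and none passed an adjusted p of 0.05 in edgeR in any of the 5 lineages. With the replicate number, and with it the sex, as a block, 3 members were called in mural cells (Tubb3, Tubb5 and Tuba1c), 3 in fibroblasts (Tubb3, Tubb2b and Tubb5) and 1 in epithelial cells (Tubb5), beside 4.32%, 8.92% and 1.10% of all genes. In mural cells 0 of 10 members passed, as did 0.0263% of all 15199 genes. At an unadjusted p under 0.05 there were 3 members (Tubb3, Tubb5 and Tuba4a), beside 11.9% of all genes, and DESeq2 called 1 member, Tubb3, beside 1.55% of all genes. For 6 members the 2 genotypes did not overlap, and 40.3% of all genes were of that kind. In fibroblasts 0 members and 0.0% of all genes passed, 4 members (Tubb3, Tubb2b, Tubb5 and Tuba4a) and 18.3% of genes had an unadjusted p under 0.05, DESeq2 called 2 members (Tubb3 and Tubb2b) and 3.57% of genes, and 6 members and 48.0% of genes did not overlap.

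In endothelial cells 0 of the 9 members tested and 0.023% of 13036 genes passed, 4 members (Tubb2a, Tubb2b, Tubb5 and Tubb6) and 13.7% of genes had an unadjusted p under 0.05, DESeq2 called 2 members (Tubb2b and Tubb5) and 1.15% of genes, and 6 members and 45.7% of genes did not overlap. In immune cells 0 members and 0.0% of 14305 genes passed, 3 members (Tubb6, Tuba1c and Tuba4a) and 8.16% of genes had an unadjusted p under 0.05, DESeq2 called 0 members and 0.496% of genes, and 5 members and 40.5% of genes did not overlap. In epithelial cells 0 members and 0.0% of 11281 genes passed, 1 member (Tubb5) and 5.44% of genes had an unadjusted p under 0.05, DESeq2 called 0 members and 0.0532% of genes, and 1 member and 36.6% of genes did not overlap.

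With lineages set by the marker genes, Tubb5 was the single member for which both Tubb3-/- animals lay above both WT animals in all 5 lineages. In each lineage alone, 36.6% to 48.0% of all genes did not overlap, in either direction. How many genes did so in 1 direction in all 5 is not given, and the lineages share the same 4 mice. The fitted differences of Tubb2b were also above 0 in all 5, with overlap in mural and epithelial cells. With lineages from clusters, Tubb2b overlapped in immune cells alone and Tubb5 in epithelial cells alone, so this standing of Tubb5 depends on how lineages were set. In mural cells Tubb5 had 173 and 187 CPM in WT and 256 and 227 CPM in Tubb3-/- mice. In fibroblasts the values were 167 and 163 against 232 and 207 CPM, and in endothelial cells 267 and 307 against 436 and 449 CPM. Immune cells, the lineage of the smallest difference, had 204 and 185 against 227 and 209 CPM, and epithelial cells had 90.4 and 96.5 against 141 and 197 CPM. The log2 fold changes were 0.43 (SE 0.12, adjusted p = 0.226), 0.43 (0.11, 0.172), 0.64 (0.11, 0.0857), 0.18 (0.10, 0.698) and 0.82 (0.20, 0.857) in edgeR, in the same order. With lineages from clusters the difference was 0.19 in mural and 0.31 in epithelial cells, less than in the lineages above, and 0.63 in endothelial cells. In epithelial cells the genotypes then overlapped, at 153 and 109 CPM in WT and 152 and 193 CPM in Tubb3-/- mice. The whole-cell pool alone gave 0.37 in mural, 0.43 in fibroblast and 0.64 in endothelial cells, and the mural cell-enriched pool alone 0.42, 0.40 and 0.54.

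Markers of other lineages moved with genotype in the same sums. In the mural lineage 5 fibroblast markers summed to 2792 and 2825 CPM in WT and 5028 and 4337 CPM in Tubb3-/- mice, with none at 0. Of these Col1a1 had 894 and 846 against 1852 and 1585 CPM and Lum 96.5 and 69.5 against 264 and 176 CPM, whereas Dcn and Pdgfrb overlapped between genotypes. In the fibroblast lineage 6 mural markers summed to 640 and 657 against 1363 and 999 CPM, with none at 0. Most of that sum was Acta2 (332.5 and 322 against 634 and 470 CPM) and Tagln (277 and 313 against 695 and 497 CPM). Notch3 and Cspg4 were also higher in both Tubb3-/- mice, whereas Cox4i2 and Ndufa4l2 overlapped between genotypes. In the mural lineage 5 epithelial markers went the other way, at 536 and 705 against 431 and 347 CPM, although Scgb1a1 among them overlapped. In the endothelial lineage 3 mesothelial markers summed to 231 and 189 against 26.3 and 95.95 CPM. The part of all these markers in the genotype differences of the tubulins was not tested.

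For Tubb2b both Tubb3-/- mice were above both WT mice in fibroblasts, endothelial cells and immune cells. Fibroblasts had 9.66 and 6.54 CPM in WT and 19.2 and 16.3 CPM in Tubb3-/- mice, a difference of 1.13 on the log2 scale (SE 0.23, adjusted p = 0.127 in edgeR and 0.00476 by DESeq2). Endothelial cells had 30.7 and 23.7 CPM against 53.1 and 49.5 CPM, a log2 fold change of 0.96 (SE 0.16, adjusted p = 0.0857 in edgeR and 0.0271 by DESeq2). Immune cells had 6.42 and 4.25 against 6.73 and 11.1 CPM, and overlapped with lineages from clusters. In mural cells its values of 5.71 and 9.82 against 8.48 and 11.5 CPM overlapped between genotypes. With lineages from clusters they did not overlap, at 1.80 and 2.84 against 2.85 and 2.94 CPM. Epithelial clusters did not overlap either, at 4.51 and 2.08 against 6.31 and 5.99 CPM. Each pool alone gave 1.07 and 1.14 in fibroblasts and 0.94 and 1.02 in endothelial cells (whole-cell, then mural cell-enriched). The direction of Tubb2b in fibroblasts held in 16 of 16 alternatives, 3 of which passed the threshold, and in endothelial cells in 16 of 16, of which 5 passed.

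Tuba4a pointed the other way, lower in both Tubb3-/- mice in mural, fibroblast, endothelial and immune cells, with overlap in epithelial cells. It had 10.3 and 10.0 CPM in WT and 7.45 and 6.44 CPM in Tubb3-/- mural cells, and 5.68 and 3.57 against 2.51 and 2.42 CPM in fibroblasts. Neither passed, at -0.54 (SE 0.17, adjusted p = 0.305) and -0.90 (SE 0.31, adjusted p = 0.220) in edgeR, and no alternative brought either past the threshold. Endothelial cells had 10.2 and 6.27 against 4.37 and 5.92 CPM of Tuba4a, and overlapped with lineages from clusters. Immune cells had 43.2 and 49.9 against 39.2 and 36.1 CPM, and did not overlap with lineages from clusters either. Tubb6 had 22.5 and 17.2 CPM in WT and 31.1 and 27.5 CPM in Tubb3-/- endothelial cells, but 57.6 and 58.0 against 49.6 and 43.0 CPM in immune cells. The log2 fold changes were 0.61 (SE 0.19, adjusted p = 0.240) and -0.30 (SE 0.11, adjusted p = 0.60) in edgeR. In endothelial cells the genotypes of Tubb6 overlapped with lineages from clusters (30.8 and 21.3 against 33.5 and 30.1 CPM) and without cells that hold an Mki67 or Top2a UMI (20.7 and 12.7 against 18.6 and 19.3 CPM), where the log2 fold change was 0.25. Tuba1c in immune cells had 82.8 and 91.3 against 72.3 and 67.2 CPM, and Tuba1c overlapped between genotypes in mural cells at 112 and 77.4 against 79.6 and 60.1 CPM. There it did not overlap with lineages from clusters, at 122 and 88.7 against 86.8 and 61.5 CPM, and it was among the members called with the replicate block.

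Tubb2a was higher in both Tubb3-/- mice in mural cells (79.2 and 80.2 against 87.1 and 84.7 CPM), fibroblasts (119 and 107 against 143 and 133 CPM) and endothelial cells (199 and 206 against 223 and 272 CPM), and overlapped in immune and epithelial cells. The log2 fold changes were 0.11, 0.30 and 0.31 (SE 0.09, 0.12 and 0.12), none of which passed (adjusted p = 0.703, 0.273 and 0.328 in edgeR). The mural value turned to -0.09 with lineages from clusters, with overlap between the genotypes.

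No difference of Tuba1a, Tuba1b or Tubb4b passed in edgeR in any lineage. Tuba1a, at 343 and 404 CPM in WT and 425 and 450 CPM in Tubb3-/- mural cells, had a log2 fold change of 0.24 (SE 0.11, adjusted p = 0.464 in edgeR). The values of Tuba1b lay between -0.06 and 0.17 over the 5 lineages, and those of Tubb4b between -0.21 and 0.08. The medians over the members tested were 0.04 in mural, -0.11 in fibroblast, 0.31 in endothelial, -0.14 in immune and 0.18 in epithelial cells, where the medians over all genes were 0.006, 0.011, -0.006, -0.002 and 0.002.

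**Figure D4:**
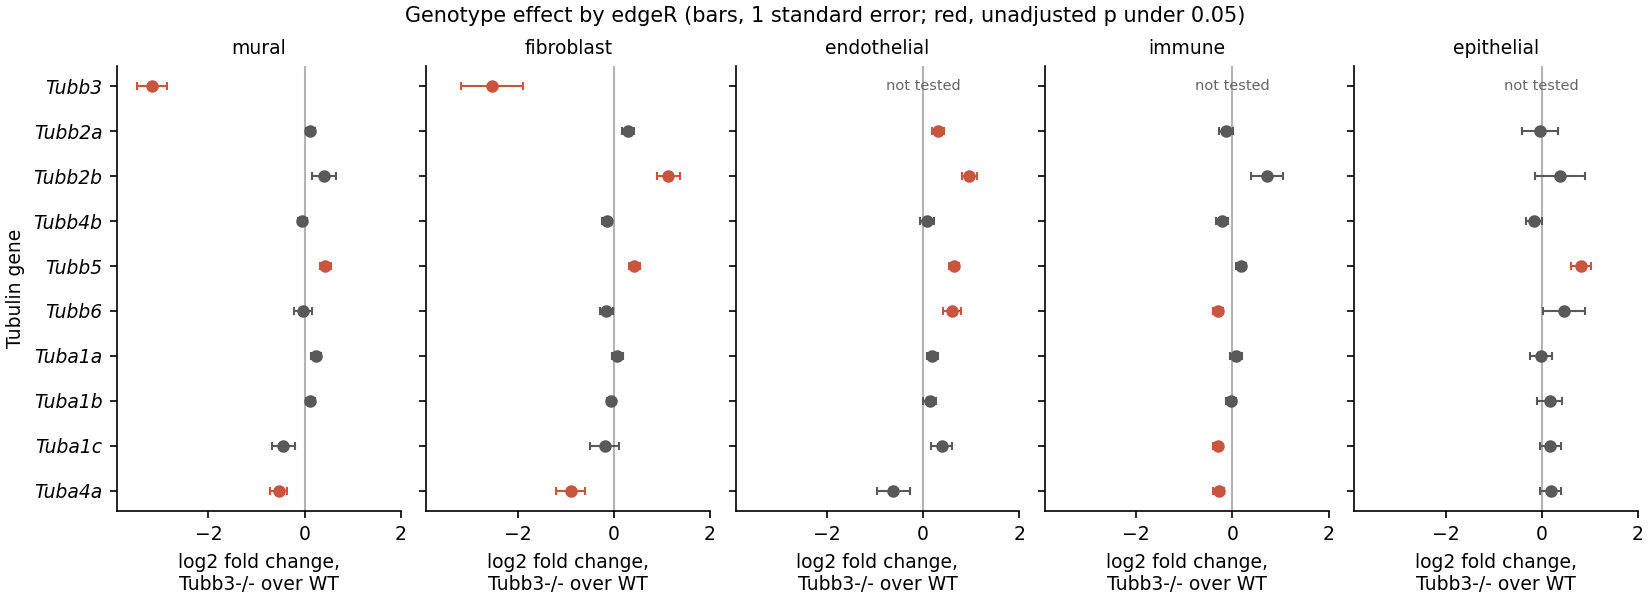
Log2 fold change of Tubb3-/- over WT mice (horizontal axis) for the 10 tubulins (rows) in 5 lineages (panels), from edgeR, with bars of 1 standard error and in red the values with an unadjusted p under 0.05. Tubb3 stands at -3.17 in mural cells, and Tubb5 lies to the right of 0 in all 5 lineages, between 0.18 and 0.82.

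The β-tubulin sum shows how small the part of Tubb3 was. In WT mural cells Tubb3 made up 2.09% and 1.65% of the UMIs of the 6 β-tubulins, and in Tubb3-/- mice 0.136% and 0.246%. The sum of the 6 was 498 and 515 CPM in WT and 584 and 536 CPM in Tubb3-/- mural cells. The sum of the 4 α-tubulins was 637 and 668 CPM against 704 and 702 CPM. With lineages from clusters both sums overlapped between genotypes in mural cells, at 456 and 452 against 479 and 422 CPM for the β-tubulins and 610 and 663 against 656 and 634 CPM for the α-tubulins. In endothelial cells, where no WT Tubb3 UMI was counted, the β-tubulin sum was 671 and 756 CPM against 918 and 992 CPM. Immune cells had 380 and 370 against 386 and 363 CPM, with overlap between the genotypes.

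Within that sum the share of Tubb5 was larger in both Tubb3-/- mice in each lineage. It was 34.8% and 36.4% in WT against 43.8% and 42.4% in mural cells, 31.2% and 32.5% against 38.4% and 37.2% in fibroblasts, and 39.8% and 40.6% against 47.4% and 45.3% in endothelial cells. Immune cells had 53.6% and 50.1% against 58.8% and 57.5%, and epithelial cells 10.5% and 13.5% against 18.5% and 22.6%. The share of Tubb4b was smaller in both Tubb3-/- mice in each lineage, for example 29.5% and 31.9% against 26.2% and 27.3% in mural cells. Its level in CPM overlapped between genotypes in all lineages but fibroblasts, with 146.8 and 164.3 against 152.9 and 146.6 CPM in mural cells. In fibroblasts it was lower, at 143.7 and 144.4 against 131 and 126 CPM. With lineages from clusters the share of Tubb5 was again larger in both Tubb3-/- mice in each lineage, while that of Tubb4b overlapped between genotypes in mural (28.8% and 27.8% against 27.2% and 28.3%), immune (17.5% and 19.4% against 17.5% and 17.9%) and epithelial cells. These shares are descriptions of UMIs, with no test.

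Tubb5 is known for its level in dividing cells, and 7 cell cycle markers (Mki67, Top2a, Cdk1, Ccnb1, Birc5, Cdc20 and Ube2c) differed between the same mice. Their summed level was 23.8 and 27.4 CPM in WT and 94.4 and 89.99 CPM in Tubb3-/- mural cells, 45.2 and 27.8 against 80.2 and 54.2 CPM in fibroblasts, and 74.1 and 60.6 against 338 and 250 CPM in endothelial cells. Epithelial cells had 20.3 and 15.3 against 69.7 and 89.4 CPM, and only immune cells overlapped, at 182 and 168 against 195 and 162 CPM. Ube2c was called in mural cells (2.73 on the log2 scale, SE 0.14, adjusted p = 0.00903 in edgeR) and Mki67 in endothelial cells (2.46, SE 0.21, adjusted p = 0.0312). DESeq2 called all 7 in mural and in endothelial cells, beside 1.55% and 1.15% of all genes, and 1 of 7 in fibroblasts, beside 3.57%. None of the 7 was at 0 in any lineage.

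Cells with a UMI of Mki67 or Top2a were 3.05% and 4.88% of endothelial cells in WT and 14.4% and 10.1% in Tubb3-/- mice, at median depths of 5681 and 6238.5 against 8132 and 8004 UMIs, and these shares were not thinned to 1 depth. In mural cells they were 4.16% and 4.48% against 5.50% and 5.49%, at median depths of 10354 and 9600 against 12002 and 11681 UMIs. Tubb5 was higher in these cells than in the rest of their lineage in 4 of 4 mice of the mural, fibroblast, endothelial and immune lineages, by 1.70 to 2.54 times in endothelial and 2.95 to 3.58 times in immune cells. Tubb6 was 3.67 to 5.96 times higher in such endothelial cells. Tuba1b was 3.53 to 3.69 times higher in such immune cells. Tubb3 had 1.10 to 1.82 times the level of the rest in such mural cells of the 4 mice, and 0.189 to 4.87 times in such fibroblasts.

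Without those cells, Tubb5 had 166 and 181 CPM in WT and 214 and 201 CPM in Tubb3-/- mural cells, and 261 and 285 against 340 and 372 CPM in endothelial cells. Both Tubb3-/- mice remained above both WT mice in all 5 lineages. The log2 fold changes were 0.27 in mural, 0.34 in fibroblast, 0.41 in endothelial, 0.21 in immune and 0.52 in epithelial cells, and none passed. Those of Tubb2b were 1.12 in fibroblast and 1.01 in endothelial cells, beside 1.13 and 0.96 with all cells. For Tubb3 in mural cells the value was -3.16, beside -3.17.

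**Figure D5:**
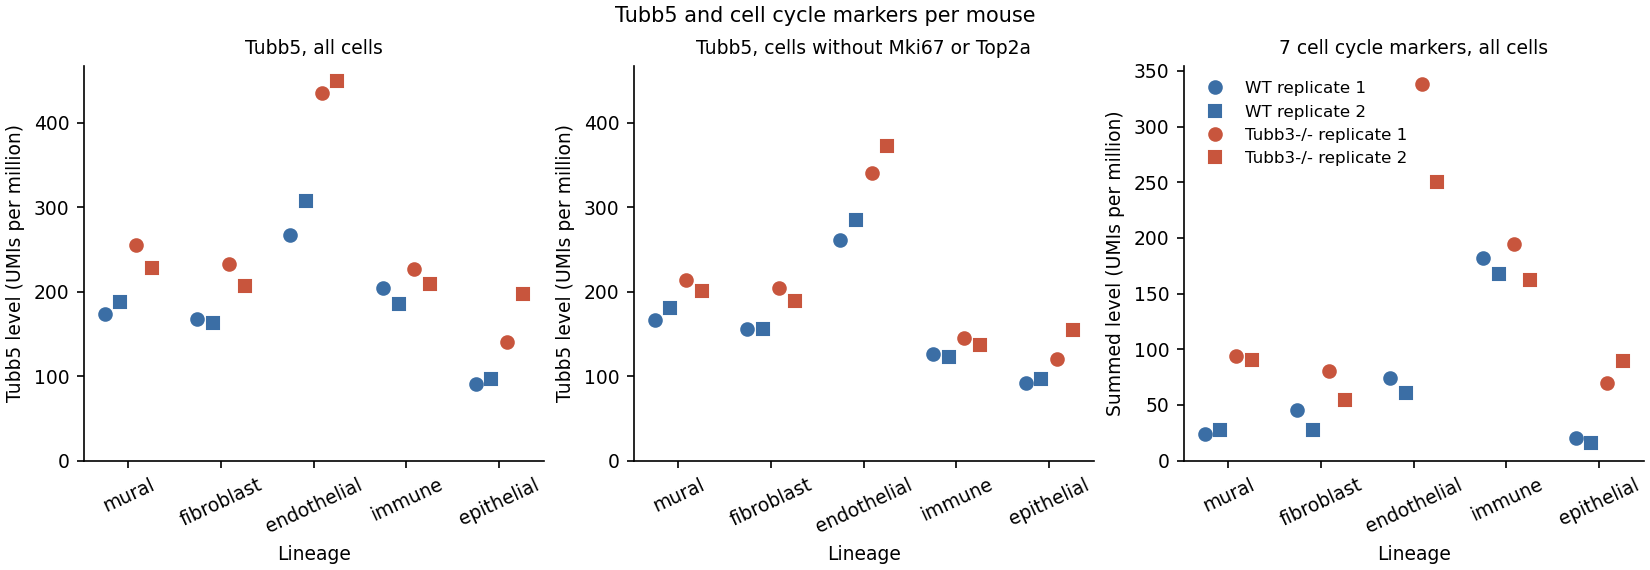
Tubb5 in CPM in all cells (left) and in cells without a Mki67 or Top2a UMI (middle), and the sum of 7 cell cycle markers (right), per mouse (blue WT, red Tubb3-/-; circle replicate 1, square replicate 2) in 5 lineages. Both red points lie above both blue points for Tubb5 in each lineage, and the marker sum reaches 338 CPM in endothelial cells of Tubb3-/- replicate 1.

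Whether the genotype difference itself varied between lineages was tested with lineage by genotype terms in edgeR over 18101 genes, with mural cells as the reference and the mouse in the model. No member passed in any of the 4 contrasts. Of all 18101 genes only 1 passed for fibroblast, 0 for endothelial, 7 for immune and 0 for epithelial cells. For Tubb3 the fibroblast difference was 0.76 above the mural one (SE 0.62, adjusted p of 1). Its endothelial difference was 7.73 above (SE 2.26, adjusted p = 0.552 in edgeR), a size that is not exact because it rests on 0 WT UMIs. With lineages from clusters it was 1.76 above (SE 0.65, adjusted p = 0.691 in edgeR). The endothelial difference of Tubb6 was 0.65 above the mural one (SE 0.23, adjusted p = 0.639 in edgeR). For Tubb5 the 4 lineages differed from mural cells by -0.25 to 0.40, with SEs of 0.22 to 0.24, and for Tubb2b by 0.02 to 0.75, with SEs of 0.40 to 0.70, so differences of these sizes between lineages were not resolved.

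Other genes of the tubulin pathway were read from the same fits. Of 10 further tubulins, 5 were tested in mural cells, 5 in fibroblasts and 2 in endothelial cells, and edgeR called none in any lineage. An unadjusted p under 0.05 was found for 1 in fibroblasts and 1 in endothelial cells, beside 18.3% and 13.7% of all genes. Tubb4a, a β-tubulin best known from brain, had 42.8 and 44.9 CPM in WT and 38.4 and 39.5 CPM in Tubb3-/- mural cells, and 18.8 and 26.2 against 9.90 and 12.6 CPM in fibroblasts. Its fibroblast log2 fold change of -0.98 (SE 0.17) had an adjusted p of 0.106 in edgeR. DESeq2 called it there, alone among these tubulins, with an adjusted p of 0.0019, beside 3.57% of all genes. Tubg1, the γ-tubulin that nucleates microtubules, had 12.1 and 16.3 against 13.4 and 16.3 CPM in mural cells.

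The 21 genes of tubulin folding comprise the chaperonin CCT, prefoldin and the tubulin cofactors with Arl2. None was called by edgeR or DESeq2 in any lineage, and 0, 3 and 6 of 21 had an unadjusted p under 0.05 in mural, fibroblast and endothelial cells, where 11.9%, 18.3% and 13.7% of all genes did. Their median log2 fold change was 0.10 in mural, 0.16 in fibroblast and 0.21 in endothelial cells. The 6 in endothelial cells were the CCT subunits Cct2, Cct4, Cct5, Cct6a, Cct7 and Cct8, with log2 fold changes of 0.33 to 0.46. Cct5 had 107 and 104 CPM in WT and 153 and 132 CPM in Tubb3-/- endothelial cells (SE 0.12, adjusted p = 0.186 in edgeR).

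The genes of the autoregulation pathway, Ttc5, Scaper and Cnot11, were tested in all 5 lineages and none was called by edgeR or DESeq2. Of them 1 (Scaper in fibroblasts) had an unadjusted p under 0.05, as did 18.3% of all genes there. Ttc5, which binds the nascent chain, had 18.6 and 22.7 CPM in WT and 17.1 and 20.2 CPM in Tubb3-/- mural cells, and Scaper had 48.1 and 54.7 against 36.2 and 49.5 CPM. In fibroblasts Scaper had 46.4 and 53.6 against 34.9 and 43.9 CPM, a log2 fold change of -0.33 (SE 0.12, adjusted p = 0.241 in edgeR).

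Of 14 enzymes that modify tubulin and 22 proteins that bind microtubules, none passed in edgeR in any lineage, and DESeq2 called none outside fibroblasts. In mural cells 1 of each list had an unadjusted p under 0.05. Svbp, the partner of the vasohibins that remove the terminal tyrosine of α-tubulin, had 57.4 and 62.2 CPM in WT and 70.0 and 71.3 CPM in Tubb3-/- mural cells (log2 fold change 0.25, adjusted p = 0.325 in edgeR). Stmn1, which binds free dimers and is high in dividing cells, had 30.4 and 34.2 against 60.7 and 44.8 CPM (0.73, SE 0.17, adjusted p = 0.185 in edgeR). In fibroblasts 2 of 13 and 6 of 22 tested had an unadjusted p under 0.05, beside 18.3% of all genes, and DESeq2 called 0 and 2, beside 3.57%. The counts were 0 of 13 and 4 of 18 in endothelial cells (13.7% of all genes), 3 of 12 and 0 of 20 in immune cells (8.16%) and 0 of 12 and 1 of 18 in epithelial cells (5.44%). The members of the binding list called by DESeq2 in fibroblasts were Clasp2, which binds growing microtubule ends, at 269 and 210 against 159 and 137 CPM, and Map7, at 11.9 and 11.02 against 5.98 and 7.23 CPM (DESeq2 adjusted p = 0.0226 and 0.0412). Mapt, which encodes tau, had 29.6 and 80.0 CPM in WT and 16.0 and 20.5 CPM in Tubb3-/- fibroblasts, and 236 and 219 against 185 and 188 CPM in endothelial cells. The medians of both lists lay between -0.09 and 0.11 in the 5 lineages.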

How the data were processed

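UMI counts per gene and cell were deposited by the authors, who aligned the reads of 3′ scRNA-seq libraries with Cell Ranger (7.1.0, as given in the submitters' processing notes) to mm10 with an added Cre sequence and assigned cells to mice by multiplexing tags. Cells with 200 to 7500 genes and at most 15% mitochondrial UMIs were kept, as in the study's methods. UMIs of both pools were summed per mouse and lineage. Lineages were set by at least 1 UMI of the marker genes named in the report, and cells that matched several lineages, doublets among them, were dropped. Scrublet, run per pool as an alternative with an expected rate of 0.08, marked 142 of 14160 (1.00%) and 700 of 16700 cells (4.19%). Within a pool no barcode was shared between mice, and 59 barcodes were shared between the pools.

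Sums were tested with edgeR (4.0.16, R 4.3.3): filterByExpr, TMM factors and the quasi-likelihood F test, two-sided, with Benjamini-Hochberg adjustment over all genes of a fit and a threshold of 0.05. Standard errors are the fold change over the root of F. Fits between genotypes used the 4 sums of 1 lineage, with no covariate. The WT lineage fit (10 sums) and the fit of lineage by genotype terms (20 sums) held the mouse as a covariate. Levels and sums in the text are CPM without TMM. On simulated counts, which held 100 changes of each size, the mural fit (15224 genes) recovered 54% of 2-fold and 99% of 4-fold changes. The epithelial fit (11284 genes) recovered 22% and 92%. Recovery in the observed counts was not tested. In the observed mural fit Tubb3 was lower by more than 4-fold and still missed the threshold. DESeq2 (1.42.0), other scalings, no filter, a replicate block, single pools, a gate of 2 UMIs, no cell limits, removal of doublets or of cells with Mki67 or Top2a, and leaving out each mouse were alternatives. Lineages from Leiden clusters (scanpy 1.11.5), the split by any Higd1b UMI, the pairwise WT tests of Tubb3 and the share of Tubb3 left without each mouse were added after seeing the data.

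The rule for named genes was the 10 tubulins, Cre, the genes beside Tubb3, the 5 genes closest to Tubb3 in pattern, and lists of pathway genes. The members and lists were chosen with earlier results of these data known. Values of the list genes in the text were chosen after their results were seen. Some nerve cell markers of the lists, and the sums that hold them, are not reported here.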

Additional observations from a re-analysis of the deposited data

Results flagged for a closer look

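Genotype differences that ran in opposite directions in 2 lineages were found for Tubb3 and Tubb6, without overlap between the genotypes in the lineages named here. Tubb3 was lower in fibroblasts of Tubb3-/- mice by a mean of -2.24 CPM and in immune cells by -0.622 CPM, and higher in endothelial cells by 0.281 CPM. The endothelial value rests on 3 and 1 UMIs in Tubb3-/- mice against 0 in WT mice. With lineages from clusters, endothelial cells had 5 and 7 UMIs in WT against 6 and 4 UMIs in Tubb3-/- mice, and 1.02 and 0.825 against 0.444 and 0.330 CPM, so the direction turned. Tubb6 was higher by 9.44 CPM in endothelial cells and differed by -11.5 CPM in immune cells. Its endothelial genotypes overlapped with lineages from clusters and without cells that hold an Mki67 or Top2a UMI, whereas its immune cells did not overlap in either. The difference between lineages was not tested for these pairs. The test of each lineage against mural cells called no member, and 1, 0, 7 and 0 of 18101 genes for fibroblast, endothelial, immune and epithelial cells.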

How the results depend on the processing

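Counts of tubulins called between genotypes were 0 in each lineage in edgeR, and are given here for the alternatives beside the share of all genes called in the same fit. In mural cells the count was 1 with lineages from clusters (0.027% of genes), 1 with DESeq2 (1.55%), 2 without the filter on low counts (3.24%) and 0 to 2 when 1 mouse was left out, with 6.44% of genes without WT replicate 1 (1 member) and 4.98% without WT replicate 2 (2 members). In fibroblasts it was 2 with DESeq2 (3.57%) and 0 to 1 with 1 mouse left out, with 5.71% of genes without WT replicate 1 and 3.31% without WT replicate 2. In endothelial cells it was 1 with the gate at 2 UMIs (0.56%), 2 with DESeq2 (1.15%), 3 without the filter (4.72%) and 1 to 2 with 1 mouse left out (0.415% to 4.74%). In epithelial cells it was 1 without the filter (1.16%), and immune cells stayed at 0 throughout. A fit that leaves 1 mouse in a genotype assumes that it varies like the others. The direction of each of the 15 differences with an unadjusted p under 0.05 in edgeR held in all their alternatives. Outside these 15, the mural difference of Tubb2a and the endothelial difference of Tubb3 turned with lineages from clusters. Tubb5 passed in 6 of 16 alternatives in endothelial, 2 in mural, 1 in fibroblast and 2 in epithelial cells. Calls over all genes moved more, from 4 to 236 in mural, 0 to 545 in fibroblast, 3 to 150 in endothelial, 0 to 71 in immune and 0 to 6 in epithelial cells with DESeq2, and the cause was not tested. Tubb3 left in mural cells was 10.7% and 2.88% in the whole-cell libraries alone, from 1 UMI. The mural genotype difference of -3.41 in cells without Higd1b was -2.59 in cells with it and -2.77 in Higd1b cells of mural clusters, where fewer cells were summed and the test was not passed.

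With the replicate block the count of members called was 3 in mural, 3 in fibroblast, 0 in endothelial, 0 in immune and 1 in epithelial cells, and calls over all genes were 656, 1363, 6, 21 and 124. The members were Tubb3 (adjusted p = 0.00363), Tubb5 (0.0337) and Tuba1c (0.0289) in mural cells, Tubb3 (0.0383), Tubb2b (0.00683) and Tubb5 (0.0176) in fibroblasts and Tubb5 (0.0209) in epithelial cells, in edgeR. Deviations of mice with the same replicate number correlated at 0.268 in mural, 0.301 in fibroblast, 0.0847 in endothelial, 0.165 in immune and 0.0917 in epithelial cells. The numbers are not stated to mark a shared litter or day. Replicate 1 of both genotypes carried Y-linked UMIs and replicate 2 Xist, so the block is also a block on sex.

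Depth limits the low genes. The floor of 3 counts over both WT mice stands at 0.804 CPM in epithelial and 0.444 CPM in endothelial cells, above the WT immune level of Tubb3 of 0.748 CPM in the former, so Tubb3 at that level was not detectable in epithelial cells. The rule for lineages drops 39.7% of cells.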
